A study of Mus musculus with 12 samples.

Results

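The genes described here carry out or schedule the copying of the genome in S phase of the cell cycle. They were chosen by name, as 45 gene symbols, with earlier results of these data known. The list takes in factors that license replication origins, subunits of the replicative helicase, the sliding clamp and its loader, primase and the DNA polymerases. It also takes in lagging-strand enzymes, enzymes that supply deoxynucleotides, chromatin factors of the fork, and regulators of entry into S phase. A gene's value was read from the array row whose platform annotation gave exactly that symbol, and where several rows carried it, the brightest on average across the 12 arrays was taken. Of the 45 genes, 43 had such a row, out of 22180 gene symbols with a row in the table. The clamp loader subunit Rfc4 and the cyclin Ccne2 lay only on rows that the annotation also gives to Eif4a2 and Ints8, so no value is given for them. The origin recognition subunit Orc1 stood between 3.54 and 3.83 on all 12 arrays, below the limit for testing, which left 42 tested genes of the 14079 tested in all.

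Macrophages were derived from bone marrow of mice in 30% L929-conditioned medium, which supplies the macrophage growth factor CSF1. Knockout cells came from Rasgef1b_fl/fl_vav-icre mice, in which a floxed Rasgef1b gene, encoding an exchange factor for Ras-family GTPases, is deleted by a Cre recombinase driven by the Vav promoter in blood-forming cells. The other cells came from wild-type mice, and the labels name no group with Cre alone. Cells of each genotype received R848, an agonist of the endosomal RNA receptors TLR7 and TLR8, for 4 h, or saline, with no time given for saline. The 4 groups were thus knockout with R848, knockout with saline, wild type with R848 and wild type with saline, with 3 arrays each. Age, sex and the number of mice are not given in the labels, nor whether replicates were separate mice or cultures, so p-values measure only the spread between these arrays.

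Before S phase, the origin recognition complex, Cdc6 and Cdt1 load the MCM2-7 ring onto DNA, and Cdc45 and the GINS complex later turn it into the active helicase. Polymerase alpha-primase starts each strand, polymerase epsilon extends the leading strand and polymerase delta the lagging strand, held by the clamp PCNA. Many of these genes are transcribed under E2F factors, which the retinoblastoma family holds inactive until cyclin-dependent kinases release them at the boundary of G1 and S phase. Bone marrow-derived macrophages divide in response to CSF1, and activation through Toll-like receptors is known to slow that division. In bulk RNA, fewer cells in S phase and less RNA of these genes per cell cannot be told apart.

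The arrays matched their labels as far as the values allow. Rasgef1b stood at 9.45, 8.60 and 9.36 in knockout cells with R848, against 9.84, 9.84 and 9.69 in wild-type cells with R848. With saline it stood at 8.63, 7.88 and 8.72 in knockout cells, against 9.03, 9.19 and 9.14 in wild-type cells. All knockout arrays lay below the wild-type arrays of the same treatment, and the difference averaged over treatments was -0.68 ± 0.15 (SE, limma adjusted p = 0.036). Within each treatment Rasgef1b did not reach an adjusted p below 0.05. It differed by -0.71 with saline (limma adjusted p = 0.158) and by -0.65 with R848 (limma adjusted p = 0.333). Signal remained in the knockout, and the sources used here do not give the deleted exon, so the row checks the labels only in part. All 7 macrophage markers, among them Csf1r, Adgre1 and Cd68, were above the limit, and their mean lay between 10.25 and 10.60 on every array. Single markers moved within that mean: Mertk stood at 5.51 with R848 against 7.43 in knockout, and at 5.39 against 7.18 in wild type. At an adjusted p below 0.05 in limma, 2 of the 7 rose and 4 fell with R848 in knockout. In wild type 2 rose and 3 fell. Of 8 markers of myeloid progenitors and stem cells 3 were above the limit, Flt3, Elane and Gfi1, with Kit, Cd34 and Mpo below it in all 4 groups. Gfi1 had higher means with R848 (5.47 against 4.75 in knockout, 5.40 against 4.89 in wild type). Elane had lower ones (4.43 against 4.63 in knockout, 4.47 against 4.56 in wild type). Of 6 dendritic cell markers 4 were above the limit, with Cd209a at 9.23 in knockout saline and 8.70 in wild-type saline. None of these 4 reached an adjusted p below 0.05 in limma between the genotypes in saline. Above the limit too were 3 of 5 fibroblast markers, and 1 or 2 on each list of neutrophil, lymphoid, erythroid and mast cell markers. Over the tested genes, correlations ran from 0.9909 to 0.9964 within a group and from 0.9159 to 0.9945 between groups, so the 2 ranges overlapped.

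R848 lowered nearly the whole replication gene set in both genotypes. In knockout cells 40 of the 42 genes fell and 0 rose, with a median log2 difference of -0.79 against a median of -0.03 over all tested genes. Across all tested genes, 26% fell and 15.6% rose with R848 in knockout cells at the same threshold, an adjusted p below 0.05. In wild-type cells all 42 tested genes fell, with a median of -0.99 against -0.02, where 23.6% of all tested genes fell and 14.6% rose. All R848 arrays lay below all saline arrays for 41 genes in knockout cells and for 42 in wild-type cells. This was so for 29.3% and 28.6% of all tested genes, while 2753 and 2745 of the 14079 tested genes lay wholly above. A fall of at least 2-fold was called for 18 genes in knockout cells and 21 in wild-type cells, shares to set beside 3.86% and 3.39% of all tested genes. Cdc6, Mcm8, Pole2 and E2f2 lay under the limit for testing on every R848 array. They entered the test through their saline arrays alone, so entry favoured a fall. The genes were read on the same arrays and tend to move together, so their number is not a number of independent observations. They were chosen with earlier results of these data known, so the shares called are a description and not a test of the pathway.

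Both genes that missed the threshold in knockout cells moved least there. Mcm10, a factor that helps to activate the helicase, stood at 6.49, 6.29 and 6.48 with R848, against 6.54, 6.57 and 7.08 with saline, a difference of -0.31 ± 0.13 (SE, adjusted p = 0.0711). Tyms, thymidylate synthase, stood at 6.42, 6.20 and 6.18 with R848, against 6.50, 6.58 and 6.63 with saline, a difference of -0.30 ± 0.14 (SE, adjusted p = 0.0941). For both, the lowest saline array lay only just above the highest R848 array. Same-numbered knockout arrays deviated together, and with the replicate number as a block Mcm10 passed (adjusted p = 0.0345) and Tyms did not (0.0868), so that 41 genes fell. Without knockout saline replicate 3, the array on which 40 of the 42 genes were highest in their group, 38 genes fell in knockout cells.

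**Figure D1:**
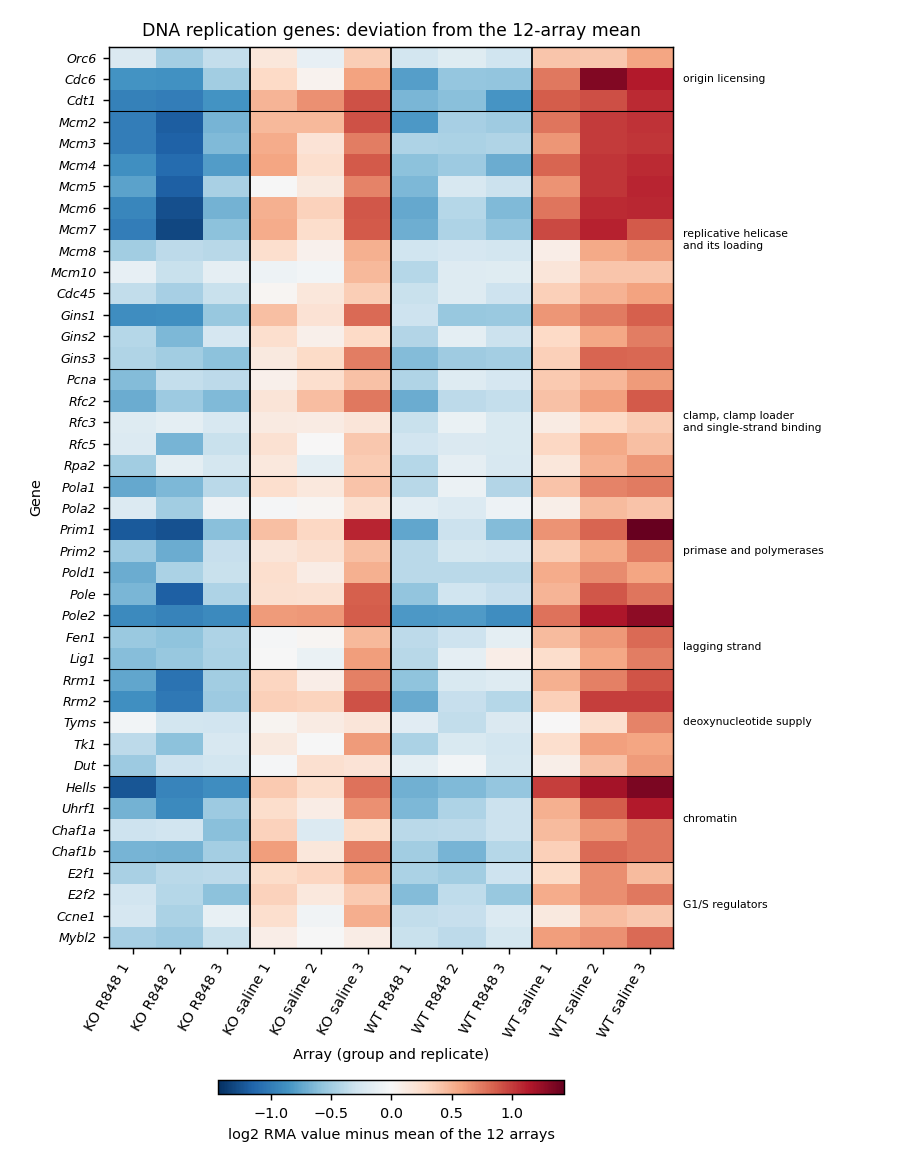
Log2 array value of the 42 tested replication genes on each of the 12 arrays, as the deviation from that gene's mean over all arrays, with genes grouped by role and arrays by group. The R848 columns are below the mean for nearly every gene, and the highest column means are those of wild-type saline replicates 2 and 3, at 7.04 and 7.12.

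Among the origin licensing factors, Cdt1, which delivers the MCM ring to the origin, had one of the largest falls in both genotypes. Its values were 5.93, 5.91 and 6.04 in knockout cells with R848, against 7.39, 7.56 and 7.81 in knockout cells with saline. In wild-type cells they were 6.24, 6.30 and 6.05 with R848, against 7.77, 7.82 and 7.97 with saline. The differences were -1.63 ± 0.11 in knockout (SE, adjusted p = 9.02e-09) and -1.66 ± 0.11 in wild type (SE, adjusted p = 8e-09), which left 32.4% and 31.7% of the saline signal.

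Cdc6, the ATPase that loads the ring together with Cdt1, had a smaller difference in knockout than in wild type, without passing the test of that contrast given further on. It stood at 3.92, 3.91 and 4.28 in knockout cells with R848, against 5.06, 4.83 and 5.36 with saline, and at 3.99, 4.22 and 4.21 in wild-type cells with R848, against 5.53, 6.11 and 5.91 with saline. The differences were -1.05 ± 0.16 (SE, adjusted p = 6.17e-05) in knockout and -1.71 ± 0.16 (SE, adjusted p = 4.57e-07) in wild type. The R848 arrays of both genotypes lay under the limit for testing, between 4.31 and 4.35, where background makes up much of the signal and differences are compressed. Orc6, the smallest subunit of the origin recognition complex, fell (-0.48 in knockout, -0.70 in wild type).

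The 6 subunits of the MCM2-7 helicase ring fell together and by similar amounts, with differences from -1.56 to -1.08 in knockout cells and from -1.59 to -1.31 in wild-type cells. Mcm6 may stand for them: it had 6.95, 6.62 and 7.21 in knockout cells with R848, against 8.39, 8.22 and 8.77 with saline. In wild-type cells Mcm6 had 7.15, 7.48 and 7.25 with R848, against 8.65, 8.95 and 8.97 with saline. All R848 arrays of a genotype were more than a unit below all its saline arrays. The differences were -1.53 ± 0.16 (SE, adjusted p = 1.57e-06) in knockout and -1.56 ± 0.16 (SE, adjusted p = 1.4e-06) in wild type.

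Mcm4 had 6.08, 5.86 and 6.16 in knockout cells with R848, against 7.53, 7.20 and 7.84 with saline, and 6.38, 6.44 and 6.25 in wild-type cells with R848, against 7.80, 7.99 and 8.04 with saline. Mcm2 had 5.79, 5.60 and 6.12 in knockout cells with R848, against 7.25, 7.25 and 7.70 with saline, and 5.96, 6.31 and 6.28 in wild-type cells with R848, against 7.55, 7.79 and 7.82 with saline. For both genes the R848 and saline arrays of a genotype were again more than a unit apart, and they retained between 33.3% and 35.6% of the saline signal in each genotype. Mcm7 had 5.56, 5.24 and 5.96 in knockout cells with R848, against 7.08, 6.80 and 7.43 with saline, and 5.85, 6.10 and 5.98 in wild-type cells with R848, against 7.49, 7.65 and 7.43 with saline. Mcm3 had 6.23, 6.07 and 6.59 in knockout cells with R848, against 7.76, 7.42 and 7.96 with saline, and 6.79, 6.77 and 6.80 in wild-type cells with R848, against 7.86, 8.23 and 8.25 with saline. Mcm3 lay lower on every knockout R848 array than on any wild-type R848 array. Mcm5 had 7.0, 6.60 and 7.30 in knockout cells with R848, against 7.76, 7.91 and 8.48 with saline, and 7.13, 7.54 and 7.46 in wild-type cells with R848, against 8.41, 8.80 and 8.86 with saline. Mcm5 had the smallest fall of the ring in both genotypes, and the widest spread of the ring between knockout saline replicates, with an SD of 0.38.

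Helicase factors outside the ring followed. Mcm8, which acts in homologous recombination, fell (-0.69 in knockout, -0.68 in wild type), and its R848 arrays lay under the limit in both genotypes. Cdc45, which joins the ring in the active helicase, fell (-0.56 and -0.74). Of the GINS subunits, Gins1 fell (-1.26 in knockout, where its R848 arrays lay under the limit, and -1.20 in wild type), Gins2 (-0.63 and -0.82), and Gins3 (-0.89 and -1.20).

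The clamp and its loader changed moderately. Pcna, the sliding clamp, stood at 10.06, 10.35 and 10.31 in knockout cells with R848 against 10.76, 10.93 and 11.11 with saline. In wild-type cells Pcna had 10.26, 10.50 and 10.45 with R848, against 11.06, 11.16 and 11.30 with saline. It fell (-0.69 in knockout, -0.77 in wild type). The clamp loader subunits differed among themselves: Rfc2 fell (-1.08 and -1.11), Rfc5 (-0.60 and -0.66), and Rfc3 (-0.32 and -0.46). Rpa2, a subunit of the single-strand binding protein, fell in both genotypes (-0.42 in knockout, where it was the single gene whose R848 and saline arrays overlapped, and -0.69 in wild type). The knockout calls of Rpa2 and of the polymerase subunit Pola2 each ended under 4 of the alternatives tried. These were cyclic loess (adjusted p = 0.0572 for Rpa2 and 0.062 for Pola2) and the omission of single knockout arrays. For Rpa2 they were saline replicate 1 (adjusted p = 0.0674), saline replicate 3 (0.126) and R848 replicate 1 (0.115). For Pola2 they were saline replicate 2 (adjusted p = 0.0503), saline replicate 3 (0.127) and R848 replicate 2 (0.159).

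The second subunit of polymerase epsilon, Pole2, had the largest fall of the set in wild-type cells. It stood at 4.18, 4.13 and 4.18 in knockout cells with R848, against 5.70, 5.71 and 5.96 with saline. In wild-type cells it stood at 4.27, 4.28 and 4.20 with R848, against 5.87, 6.25 and 6.37 with saline. All 6 R848 arrays lay under the limit, where differences are compressed, and Pole2 entered the test through its saline arrays alone. The differences were -1.63 ± 0.11 in knockout (SE, adjusted p = 1.75e-08) and -1.91 ± 0.11 in wild type (SE, adjusted p = 3.19e-09).

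Prim1, the catalytic subunit of primase, had 4.75, 4.70 and 5.35 in knockout cells with R848, against 6.39, 6.25 and 7.05 with saline. In wild-type cells Prim1 had 5.21, 5.65 and 5.33 with R848, against 6.60, 6.79 and 7.39 with saline. The differences were -1.63 ± 0.23 in knockout (SE, adjusted p = 4.08e-05) and -1.53 ± 0.23 in wild type (SE, adjusted p = 8.06e-05), with the largest standard error of the set. Its partner Prim2 fell (-0.80 and -0.85). The polymerase alpha subunits Pola1 and Pola2 fell as well (-0.86 and -0.34 in knockout, -0.93 and -0.45 in wild type). Pold1, the catalytic subunit of polymerase delta, fell (-0.78 and -0.98). Pole, the catalytic subunit of polymerase epsilon, fell (-1.19 and -1.11) on the row used. A dimmer second row of Pole gave 0.04 in knockout and 0.06 in wild type, neither past the threshold, so the rows of this gene disagree.

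Of the lagging-strand enzymes, the flap endonuclease Fen1 fell (-0.68 in knockout, -0.90 in wild type), and the ligase Lig1 (-0.70 and -0.66). A dimmer second row of Fen1 gave -0.14 and -0.11. Ribonucleotide reductase, which makes deoxynucleotides, fell in both subunits. Rrm2, its regulated small subunit, had 5.64, 5.50 and 6.0 in knockout cells with R848, against 6.86, 6.84 and 7.44 with saline. In wild-type cells Rrm2 had 5.80, 6.19 and 6.11 with R848, against 6.87, 7.52 and 7.51 with saline. The differences of -1.33 ± 0.19 in knockout (SE, adjusted p = 5.13e-05) and -1.27 ± 0.19 in wild type (SE, adjusted p = 9.03e-05) were similar.

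Rrm1, the large subunit, had 7.46, 7.14 and 7.71 in knockout cells with R848, against 8.51, 8.30 and 8.93 with saline. In wild-type cells Rrm1 had 7.63, 7.99 and 8.02 with R848, against 8.71, 8.93 and 9.11 with saline. The groups did not overlap in either genotype, with differences of -1.14 in knockout and -1.04 in wild type. Thymidine kinase Tk1 fell (-0.65 and -0.78), and the dUTPase gene Dut (-0.50 and -0.52). Tyms fell by 0.56 in wild-type cells.

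Of the chromatin factors, Hells, a helicase of the SNF2 family needed for DNA methylation, had the second largest fall of the set in wild type. It stood at 4.28, 4.56 and 4.61 in knockout cells with R848, against 5.88, 5.75 and 6.28 with saline. In wild-type cells it stood at 4.81, 4.87 and 4.95 with R848, against 6.49, 6.70 and 6.85 with saline. Each knockout array lay below every wild-type array of its treatment, and each R848 array below every saline array. The R848 differences were -1.49 ± 0.13 in knockout (SE, adjusted p = 3.01e-07) and -1.80 ± 0.13 in wild type (SE, adjusted p = 4.15e-08).

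Uhrf1, which brings the maintenance DNA methyltransferase to newly copied DNA, had 5.94, 5.71 and 6.10 in knockout cells with R848, against 6.87, 6.73 and 7.28 with saline. In wild-type cells Uhrf1 had 5.98, 6.18 and 6.31 with R848, against 7.13, 7.49 and 7.76 with saline. It fell (-1.04 in knockout, -1.30 in wild type). The chromatin assembly factor subunit Chaf1a had 5.21, 5.24 and 4.91 in knockout cells with R848, against 5.84, 5.31 and 5.77 with saline. In wild-type cells Chaf1a had 5.12, 5.13 and 5.20 with R848, against 5.96, 6.14 and 6.28 with saline. Chaf1a fell in both genotypes, with differences of -0.52 in knockout, where saline replicate 2 lay close to the R848 arrays, and -0.98 in wild type. Its partner Chaf1b fell (-1.10 and -1.17).

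The regulators of S-phase entry in the set also fell. E2f2, an activating E2F factor, had 4.18, 4.05 and 3.87 in knockout cells with R848, against 4.79, 4.61 and 4.83 with saline. In wild-type cells E2f2 had 3.84, 4.09 and 3.91 with R848, against 4.99, 5.12 and 5.21 with saline. All 6 R848 arrays were under the limit, and the differences were -0.71 in knockout and -1.16 in wild type. E2f1 fell (-0.78 and -0.88), and so did Ccne1 (-0.50 and -0.62), the cyclin E1 that activates Cdk2.

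Mybl2, a Myb-family factor that takes part in the switch to later cell cycle genes, had 4.77, 4.73 and 4.93 in knockout cells with R848, against 5.34, 5.24 and 5.35 with saline. In wild-type cells Mybl2 had 4.93, 4.87 and 4.99 with R848, against 5.85, 5.90 and 6.06 with saline. Only the wild-type saline arrays reached 5.85. The differences were -0.50 ± 0.08 in knockout (SE, adjusted p = 0.000135) and -1.01 ± 0.08 in wild type (SE, adjusted p = 1.17e-07). A dimmer second row of Mybl2 gave -0.05 in knockout and -0.06 in wild type.

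**Figure D2:**
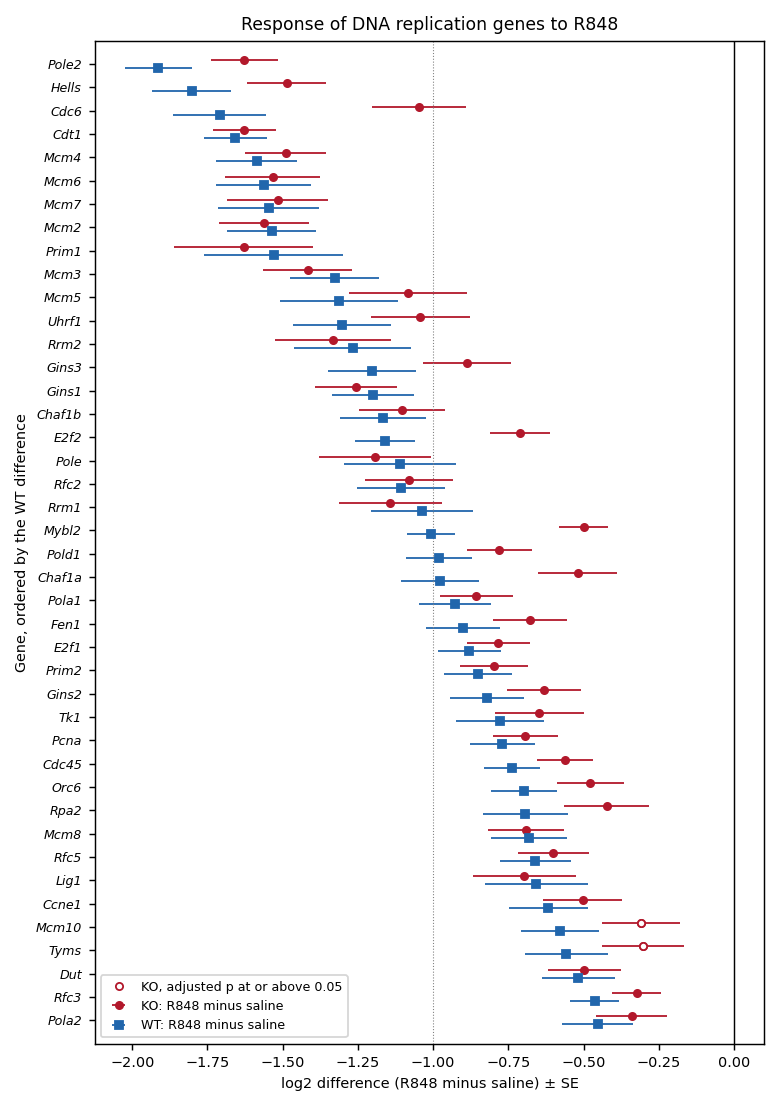
Log2 difference between R848 and saline for each of the 42 replication genes, with its standard error, in knockout (red circles) and wild-type cells (blue squares), 3 arrays per group. All points lie below 0, from -1.91 for Pole2 in wild type to -0.30 for Tyms in knockout, and the open circles are the 2 genes that did not pass in knockout.

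The size of the fall followed a similar order in both genotypes. Across the 42 genes, the knockout and wild-type differences were related by r = 0.911 (Pearson) and rho = 0.898 (Spearman). The comparisons share no array, and the genes share all arrays of their group. Over all tested genes r was 0.968. The fall was larger in wild type for 33 genes and larger in knockout for 9, among them Mcm2, Mcm3, Prim1, Pole and both ribonucleotide reductase subunits.

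Subunits of one complex did not all move alike, as the plot by complex shows. In polymerase epsilon, Pole2 fell (-1.63 in knockout, -1.91 in wild type), while the histone-fold subunits Pole3 (-0.28 and -0.31) and Pole4 (-0.06 and -0.07) did not pass the test in either genotype. In the single-strand binding protein, Rpa1 fell (-0.98 and -1.05), and Rpa3 (-0.02 and 0.10) did not pass. In polymerase delta, Pold1 fell (-0.78 and -0.98), Pold3 (-0.51 and -0.54), and Pold4 (-0.59 and -0.34), and Pold2 (-0.19 and -0.21) did not pass. In the origin recognition complex, Orc5 fell (-0.82 and -0.73) beside Orc6, while Orc2 (0.10 and -0.01) and Orc4 (0.22 and 0.11) did not pass, and Orc3 (-0.11 and -0.29) passed in wild type alone. Differences between subunits were not tested against each other.

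**Figure D3:**
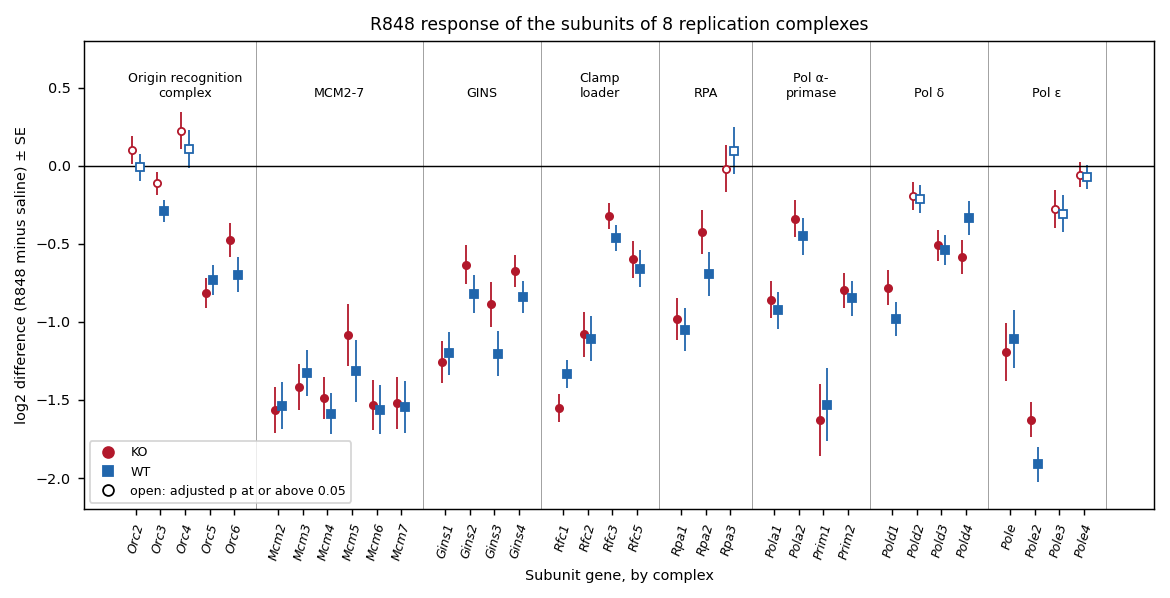
Log2 difference between R848 and saline, with its standard error, for subunits of 8 replication complexes in knockout (red circles) and wild-type cells (blue squares), 3 arrays per group, with open symbols for genes at or above an adjusted p of 0.05. The MCM2-7 subunits lie together between -1.08 and -1.59, whereas the origin recognition, RPA and polymerase epsilon subunits spread from near 0 downward.

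Other genes of the pathway, on lists that do not overlap the 45, moved in the same direction less uniformly. These lists too were chosen with earlier results known, so the contrast with the 45 genes is not a test of the pathway. Of 34 tested further fork and origin genes, 23 fell and 1 rose in knockout, and 24 fell and 1 rose in wild type, the riser being the topoisomerase Top1 (0.25 and 0.41). The largest falls were in Dtl, which directs destruction of Cdt1 (-1.68 in knockout, -1.87 in wild type), the fork protein Wdhd1 (-1.48 and -1.55), the clamp loader large subunit Rfc1 (-1.55 and -1.33) and the licensing inhibitor Gmnn (-1.45 and -1.43). Of 13 genes of nucleotide and histone supply, 7 fell in knockout and 9 in wild type, with 0 rising. The maintenance methyltransferase Dnmt1 fell furthest (-2.06 in knockout and -2.08 in wild type), ahead of the histone chaperone Asf1b (-1.11 and -1.05) and the histone mRNA binding protein Slbp (-0.64 and -0.98). Of 13 genes of S-phase repair and its checkpoint, 11 fell in each genotype, among them Brca1 (-0.90 and -1.32), Msh6 (-1.22 and -1.22) and the checkpoint kinase Chek1 (-0.75 and -1.12), while the damage kinase Atr (-0.01 and 0.08) and its partner Atrip (-0.06 and 0.06) did not pass.

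Regulators of the step from G1 to S phase outside the set moved both ways. Of 29 tested, 16 fell and 4 rose in knockout, and 15 fell and 5 rose in wild type. Ccnd1, the cyclin D1 that CSF1 signalling induces, fell (-1.72 in knockout, -1.98 in wild type). The repressive factor E2f8 fell (-1.29 and -1.57), the ubiquitin ligase subunit Skp2 (-1.51 and -1.37), and the kinase inhibitor gene Cdkn2c (-1.33 and -1.49). Ccnd2, cyclin D2, rose by 1.72 in knockout and by 1.16 in wild type. The E2F family member E2f5 rose by 0.92 and by 0.79, and Cdkn1a, the kinase inhibitor p21, by 0.57 and by 0.56. The retinoblastoma family itself fell, Rb1 (-1.21 and -1.11), Rbl1 (-0.96 and -1.26), and Rbl2 (-1.23 and -1.16).

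Since the members moved together, their promoters were read for the letters of E2F sites. RefSeq promoter windows of build GRCm38.p6, from 250 bases before to 50 bases after the gene start, were matched by symbol for 38 of the 45 genes. The letters searched on both strands were TTTCCCGC, TTTGGCGC, TTTCGCGC and TTTGCCGC, which can overlap each other. They occurred in 15 of the 38 windows, 39.5%, against 2.32% of all 27025 windows in the table and 3.79% of the 10944 windows of tested genes. The 14 tested genes with these letters had median R848 differences of -1.06 in knockout and -1.32 in wild type, against -0.62 and -0.77 for the 22 tested genes whose window lacked them. The 6 tested genes without a window had medians of -1.14 and -1.11. For comparison, 1 of 16 windows of mitosis genes held the letters.

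Windows are shown for 5 genes on which the results turn: Mcm3 and Mcm6 for the helicase ring, Pole2 and Hells for the largest falls in wild type, and Mybl2 and Hells for the genotype difference given further on. Each reads from 5′ to 3′ on the strand of the gene, and capitals mark the searched letters on either strand.
Mcm3: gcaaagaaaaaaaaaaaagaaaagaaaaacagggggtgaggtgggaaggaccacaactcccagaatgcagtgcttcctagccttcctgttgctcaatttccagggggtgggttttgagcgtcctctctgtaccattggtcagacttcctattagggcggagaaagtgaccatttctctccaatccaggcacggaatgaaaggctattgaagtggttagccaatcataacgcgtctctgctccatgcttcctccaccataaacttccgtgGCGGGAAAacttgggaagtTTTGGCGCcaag
Mcm6: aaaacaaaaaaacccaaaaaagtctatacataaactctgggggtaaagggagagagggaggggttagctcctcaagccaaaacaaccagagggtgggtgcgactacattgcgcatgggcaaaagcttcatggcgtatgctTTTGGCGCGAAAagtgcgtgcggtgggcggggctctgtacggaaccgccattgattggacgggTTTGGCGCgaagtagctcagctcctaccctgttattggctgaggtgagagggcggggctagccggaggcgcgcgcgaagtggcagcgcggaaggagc
Pole2: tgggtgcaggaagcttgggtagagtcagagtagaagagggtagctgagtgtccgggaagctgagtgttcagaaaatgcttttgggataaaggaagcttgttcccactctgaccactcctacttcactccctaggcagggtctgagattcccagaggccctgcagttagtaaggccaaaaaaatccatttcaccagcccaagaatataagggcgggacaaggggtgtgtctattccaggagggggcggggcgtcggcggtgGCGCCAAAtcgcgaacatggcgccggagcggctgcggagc
Hells: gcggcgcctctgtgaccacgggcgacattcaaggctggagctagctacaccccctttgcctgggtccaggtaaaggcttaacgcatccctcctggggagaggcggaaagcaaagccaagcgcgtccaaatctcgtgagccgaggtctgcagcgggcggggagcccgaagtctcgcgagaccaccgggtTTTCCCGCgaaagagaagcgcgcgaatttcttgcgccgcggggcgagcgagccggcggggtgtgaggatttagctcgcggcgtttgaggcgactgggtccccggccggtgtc
Mybl2: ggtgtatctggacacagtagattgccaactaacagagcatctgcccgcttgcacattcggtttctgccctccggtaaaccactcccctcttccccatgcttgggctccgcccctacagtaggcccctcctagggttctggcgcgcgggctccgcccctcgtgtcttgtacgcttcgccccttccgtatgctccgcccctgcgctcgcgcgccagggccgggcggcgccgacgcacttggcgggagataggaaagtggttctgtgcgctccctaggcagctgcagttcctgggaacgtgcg
Mcm3 lies on the minus strand at chr1:20820263-20820562, with matches that begin at positions 20 and 39 counted from the first base of the gene. Mcm6, on the minus strand at chr1:128359656-128359955, holds 3 matches, of which those at -110 and -106 overlap. Pole2, on the minus strand at chr12:69228141-69228440, has its match at position 11. Hells, on the plus strand at chr19:38930740-38931039, has its match at -62. Mybl2, on the plus strand at chr2:163054385-163054684, holds none of these letters in this window. The window of the ring subunit Mcm2, not shown, holds none either. Both are among the 22 tested genes whose window lacks the letters, so the windows shown do not represent the set. A match is a description of the letters and not evidence of a site in use.

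Letters of other cell cycle promoters divided the gene groups differently. CCAAT, the core of the NF-Y site, occurred in 55.3% of the replication gene windows, 37.9% of all windows and 87.5% of the mitosis gene windows. TTTGAA, the core of the cell cycle homology region, occurred in 10.5% of the replication gene windows, 18.1% of all windows and 68.8% of the mitosis gene windows. Among windows of tested genes the shares were 38% for CCAAT and 12.6% for TTTGAA, the latter near that of the replication genes.

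Loss of Rasgef1b was compared within each treatment. In saline, all 42 genes had a lower mean in knockout than in wild type, with a median difference of -0.31 against -0.01 over all tested genes, of which 54.7% were lower. The sign turned for 3 genes near 0 when 1 array was left out: Ccne1 (0.05) and Chaf1b (0.02) without knockout saline replicate 2, and E2f1 (0.01) without wild-type saline replicate 2. The dimmer second rows of Pole and Fen1 gave 0.14 and 0.02. Only 2 genes passed the test, Mybl2 and Hells, where 0.192% of all tested genes were called lower. With an unadjusted p below 0.05 there were 23 of the 42, or 54.8%, against 12.6% of all tested genes. Every knockout saline array lay below every wild-type saline array for 7 genes, 16.7% of the set against 9.43% of all tested genes. These were Orc6, Cdc6, Pold1, Hells, Chaf1a, E2f2 and Mybl2. Wholly above lay 0 genes of the set and 936 of the 14079 tested genes.

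Mybl2 had 5.34, 5.24 and 5.35 in knockout cells with saline, against 5.85, 5.90 and 6.06 in wild-type cells with saline. The groups were clearly apart, with a difference of -0.63 ± 0.08 (SE, adjusted p = 0.00623). The call ended in 2 alternatives, the replicate number as a block with only these 6 arrays (adjusted p = 0.0571) and the dimmer second row (-0.09, adjusted p = 0.723). Hells had 5.88, 5.75 and 6.28 in knockout cells with saline, against 6.49, 6.70 and 6.85 in wild-type cells with saline. Its difference was -0.71 ± 0.13 (SE, adjusted p = 0.0405), and the call of Hells ended in 11 of 22 alternatives. In 8 of these 1 array was left out: knockout saline replicate 1 (adjusted p = 0.11) or 2 (0.158), knockout R848 replicate 2 (0.0501), wild-type saline replicate 2 (0.0963) or 3 (0.125), or wild-type R848 replicate 1 (0.0575), 2 (0.0699) or 3 (0.0625). Leaving out knockout saline replicate 3 or wild-type saline replicate 1 raised the number of genes called in saline to 4.

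Cdc6 had the largest saline difference of the set but did not pass, and neither did Mcm5, whose difference also exceeded that of Mybl2. Cdc6 had 5.06, 4.83 and 5.36 in knockout cells, against 5.53, 6.11 and 5.91 in wild-type cells, a difference of -0.77 ± 0.16 (SE, adjusted p = 0.0572). Mcm5 had 7.76, 7.91 and 8.48 in knockout cells, against 8.41, 8.80 and 8.86 in wild-type cells, a difference of -0.64 ± 0.20 (SE, adjusted p = 0.169). For Mcm5 knockout replicate 3 lay above wild-type replicate 1, so the groups overlapped. Uhrf1 differed by -0.50 (adjusted p = 0.202). None of the other pathway lists had a gene past the threshold in saline. Their medians were -0.26 for nucleotide and histone supply, -0.23 for S-phase repair, -0.20 for further fork genes and -0.08 for other G1/S regulators. Lower in knockout were 11 of 13, 13 of 13, 28 of 34 and 23 of 29 of these genes.

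With R848, 0 of the 42 genes passed between the genotypes, where 0.0781% of all tested genes were called lower, and 11 had an unadjusted p below 0.05 in limma, or 26.2% against 8.74% of all tested genes. The median difference was -0.16 against -0.02 over all tested genes, and 35 of the 42 were lower in knockout, against 58.3% of all tested genes. The arrays did not overlap for 10 genes, all lower in knockout, 23.8% against 8.46% of all tested genes. Mcm3 had 6.23, 6.07 and 6.59 in knockout cells, against 6.79, 6.77 and 6.80 in wild-type cells, a difference of -0.49 ± 0.15 (SE) with the smallest adjusted p of the set, 0.281. Prim1 (-0.46), Rrm1 (-0.44), Mcm5 (-0.41) and Hells (-0.39) followed. The 95% intervals of the 42 differences reached from -0.96 to 0.34, which bounds the differences that these arrays leave room for.

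**Figure D4:**
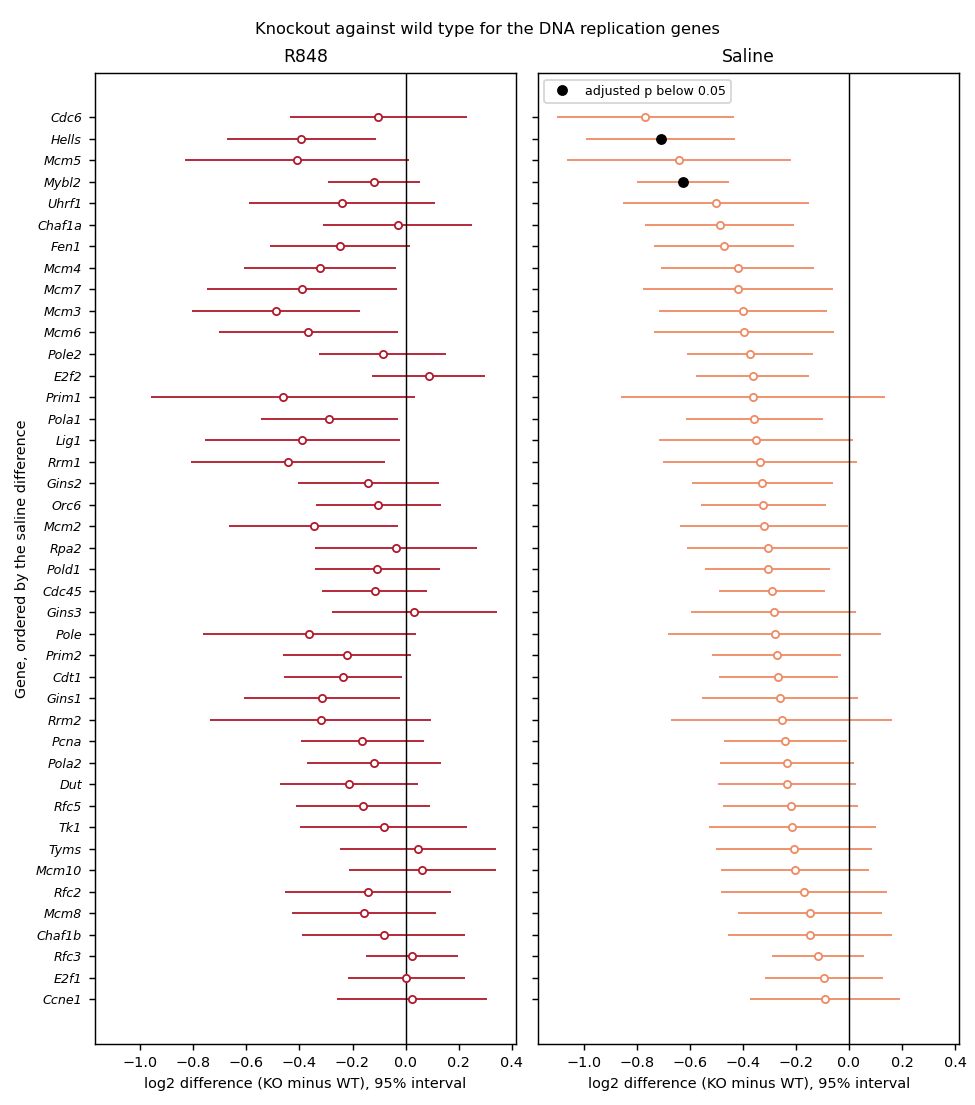
Log2 difference between knockout and wild type with its 95% interval for each of the 42 replication genes, with R848 on the left and with saline on the right, 3 arrays per group. In saline all points lie below 0 and 2 filled points, Hells and Mybl2, passed the test, while with R848 35 of the 42 points lie below 0 and none passed.

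Averaged over treatments, 3 genes were lower in knockout, where 1.01% of all tested genes were called lower: Hells with -0.55 ± 0.09 (SE, adjusted p = 0.0115), Mybl2 with -0.37 ± 0.06 (SE, adjusted p = 0.0069) and Mcm3 with -0.45 ± 0.11 (SE, adjusted p = 0.0451). The call of Mcm3 ended in 12 of 20 alternatives, with adjusted p up to 0.117 without knockout R848 replicate 2, and among the single arrays it held only without knockout saline replicate 3, wild-type saline replicate 1 or knockout R848 replicate 3. The dimmer second row of Mybl2 gave -0.09 in saline and -0.077 with R848. Mcm5 (-0.53, adjusted p = 0.0711) and Cdc6 (-0.44, adjusted p = 0.0603) did not pass. Leaving out knockout saline replicate 3 gave 13 genes, leaving out wild-type saline replicate 1 gave 7, and leaving out knockout R848 replicate 3 gave 6. At an unadjusted p below 0.05 there were 28, where 16.1% of all tested genes reached it. On the other pathway lists the average called lower 3 of 29 G1/S regulators, 2 of 13 genes of nucleotide and histone supply and 1 of 34 further fork genes. It called 0 of 13 S-phase repair genes.

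The test of whether genotype altered the R848 response called 0 of the 42 genes, and 0.0142% of all tested genes in either direction. An unadjusted p below 0.05 in limma was reached by 4 genes, 9.52% against 4.93% of all tested genes, each with a smaller fall in knockout. These were Mybl2 with 0.51 ± 0.11 (SE, adjusted p = 0.746), Cdc6 with 0.66 ± 0.22, E2f2 with 0.45 ± 0.14 and Chaf1a with 0.46 ± 0.19 (SE, adjusted p = 0.965 for each of the last 3). The dimmer second row of Mybl2, above the limit on all 12 arrays, gave 0.013, so the rows of this gene disagree. For Cdc6 and E2f2 the R848 arrays of both genotypes were under the limit, where differences are compressed. On simulated arrays with this design, 21.5% of genes with an interaction of 0.5 were recovered and 98.5% of those with an interaction of 1. Those shares are for 200 changed genes among 14079. Replicates of the 42 genes varied more, with a median SD of 0.265 against 0.101 for all tested genes in knockout saline, and 0.196 against 0.1 in wild-type saline. Their interaction SEs ran from 0.11 to 0.33, so the recovered shares need not hold for this set. The difference between the responses was positive for 33 genes and negative for 9, with a median of 0.11. That median rested on single arrays: omitting knockout R848 replicate 2 or 3 gave 0.19 or 0.04, omitting knockout saline replicate 2 or 3 gave 0.07 or 0.19, and omitting wild-type saline replicate 1 or 2 gave 0.21 or 0.06. With array weights 39 differences were positive and 3 negative, with a median of 0.19.

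Replicates of a group differed in the level of the whole set. The mean of the 42 genes was 5.72, 5.63 and 5.87 in knockout cells with R848, against 6.57, 6.48 and 6.90 in knockout cells with saline. In wild-type cells it was 5.84, 5.98 and 5.96 with R848, against 6.77, 7.04 and 7.12 with saline. The treatments were well apart in both genotypes, whereas the highest knockout array lay above the lowest wild-type array in each treatment. Wild-type saline replicate 1 was the lowest of its group for 40 of the 42 genes, and knockout saline replicate 3 the highest of its group for 40. The median SD between replicates was 0.265 for these genes in knockout cells with saline, against 0.101 for all tested genes in that group.

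Mitosis genes, which act later in the same cycle, served for comparison. Of 19 tested, 17 fell with R848 in knockout (median -0.85) and 15 in wild type (median -0.67), so their median fall was larger in knockout, unlike that of the replication genes. In saline the median genotype difference of the mitosis genes was -0.07, against -0.31 for the replication genes, and with R848 it was -0.27 against -0.16. The saline medians of the other pathway lists, given above, lay between -0.07 and -0.31. The difference between the R848 responses was negative for all 19 mitosis genes (median -0.18), and 0 passed the test. The contrast between the lists was not tested. The mean of the mitosis genes was 6.49, 6.13 and 6.47 in knockout cells with R848, against 7.30, 6.96 and 7.46 with saline, and 6.47, 6.77 and 6.70 in wild-type cells with R848, against 6.92, 7.49 and 7.60 with saline. Replicate 2 of both knockout groups and replicate 1 of both wild-type groups had the lowest mean of their group for the replication genes and also for the mitosis genes, and the part of this spread in the genotype differences was not tested.

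**Figure D5:**
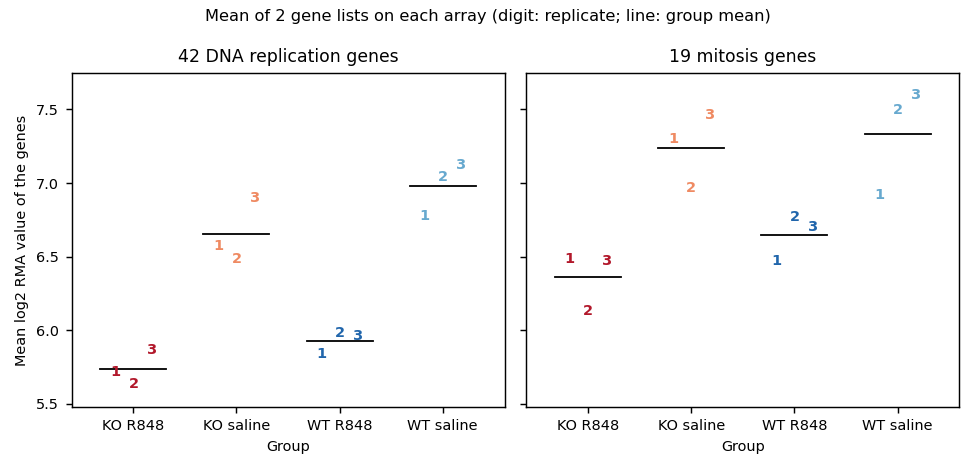
Mean log2 value of the 42 replication genes (left) and of 19 mitosis genes (right) on each array, with digits for the replicate and lines for the group mean. R848 arrays lie below saline arrays of the same genotype in both panels, and wild-type saline replicate 1 stands below the other 2 of its group.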

How the data were processed

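RNA of 12 macrophage samples was hybridised to Affymetrix Mouse Gene 2.1 ST arrays, 3 per group. The deposited values are on a log2 scale and were made by the authors with RMA in Affymetrix Expression Console, per the submitters' processing notes, with versions not given in the sources used here. RMA subtracts background, makes the distributions of all arrays alike and summarises the probes of a gene, so a shift of the whole transcriptome between groups would not be seen. The table held 34472 rows, of which 23521 carried 1 gene symbol in the platform annotation, 1814 several and 9137 none. The brightest row was used for each of 1082 symbols with several rows. Values ran from 2.15 to 12.85. No read depth exists for arrays, and 3 arrays per group limit the precision.

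Genes entered the test when at least 3 arrays lay above a limit of 4.31 to 4.35, which is the 40th percentile of single-symbol rows. This kept 14079 genes and removed 8101. One model of the 4 group means was fitted to all 12 arrays by lmFit and eBayes of limma 3.58.1 (R 4.3.3), with two-sided p-values adjusted by the Benjamini-Hochberg method over all tested genes within a comparison. A gene passed at an adjusted p below 0.05. Adjusted p-values and SEs in the text come from this limma model unless another setting is named. An exact permutation test of 3 arrays against 3 cannot go below p = 0.1 and was not used. On simulated arrays, the test of R848 in knockout cells found 82% of genes given a log2 change of 0.5. That share is for 200 changed genes among 14079 and need not hold for the 42 genes, whose replicates varied more.

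Replicate numbers come from the sample titles. The deviations of same-numbered R848 and saline arrays from their group means correlated at 0.272, 0.172 and 0.275 in knockout, all above the minimum of 0.1. The data thus hint at pairs, which the labels do not state. The main model used no pairing, and the replicate block of the alternatives joined same-numbered arrays of all 4 groups. In wild type the correlations were 0.252, -0.057 and 0.23, and between the genotypes at least 1 was also below 0.

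The members and the other gene lists were chosen with earlier results of these data known. All member genes could be named. Full values were given for the 10 members with the largest change past the threshold in a comparison, the 5 largest where fewer passed, and those with an unadjusted interaction p below 0.05. Those of Pcna, Mcm10 and Tyms were added outside this rule after their values were seen. Other lists were named by their 4 largest differences. The other complex subunits, the retinoblastoma family, Atr, Atrip and the genes that rose were chosen after their values were seen. Figures were drawn with matplotlib 3.10.9 and promoters read with Python 3.11.15.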

Additional observations from a re-analysis of the deposited data

How the results depend on the processing

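All 42 genes fell with R848 in wild type under each alternative that tested them, except where a fall of at least 2-fold was required (21 genes) or the dimmer rows were used. That fold left 18 genes for R848 in knockout, 0 for genotype in saline and 0 for the average over treatments. Leaving out 1 array at a time gave 38 to 41 genes for R848 in knockout, 42 in wild type, 1 to 4 for genotype in saline, 0 with R848, 0 for the interaction and 2 to 13 for the average. Genotype in saline called 1 gene with no filter, 4 with the replicate number as a block, 1 with only the arrays compared and 0 with both of these, the last an alternative added after seeing the data. The average called 6 genes with median centring, 10 with array weights and 12 with the replicate block, but 2 with random pairs, with no filter and with cyclic loess. Cdc6 was among the genes gained with the replicate block, in saline (adjusted p = 0.0242) and for the average (0.0265), while with random pairs it passed in saline (0.0431) and not for the average (0.0917). Deviations of same-numbered arrays of the genotypes correlated at 0.122, -0.12 and 0.143 in saline, and at 0.328, -0.004 and 0.104 with R848. Pairing between the genotypes was thus uneven across replicates and is not settled. Pole turned to 0.057 in wild type and 0.037 in knockout on its dimmer row. The cause of these changes was not tested.

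Over all tested genes, the 47 calls for genotype in saline became 31 with no filter, 99 with the replicate block, 8 with only the arrays compared and 14 with both. The 251 calls for the average became 402 with the block, 118 with random pairs and 393 with array weights. Of the calls for the average 43.4% were higher in knockout, against 29.8% with centring and 57.5% with cyclic loess. For genotype with R848 42.1% were higher, against 57.7% with loess. All 42 genes kept a negative difference for R848 in both genotypes and for genotype in saline under centring, loess and weights, while with R848 38, 35 and 36 were lower in knockout. The share of promoters with E2F letters was 36.8% for 2 of the spellings, 31.6% in the last 150 bases and 44.7% over any window of the gene, the last added after seeing the data.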

Other observations

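Genes outside the lists whose promoter window held the E2F letters also fell with R848 more often than genes whose window lacked them. Of 382 such genes, 34.3% fell in knockout and 35.6% in wild type, against 26.8% and 24.2% of the 10529 tested genes without the letters. The difference in shares was not tested. Among the 382 genes, those that fell included the checkpoint kinase Chek2 (-2.09 in knockout, -1.82 in wild type) and the condensin subunit Ncapg2 (-1.69 and -1.64). The histone methyltransferase Ezh2 (-0.80 and -1.07) and Cdca7, a partner of Hells (-0.69 and -1.21), fell as well. Tut4 (-1.69 and -1.56) and Casp2 (-1.23 and -1.43) fell further than Ezh2 and Cdca7 in both genotypes. Slc17a5 (-1.33 and -1.20), Pgap6 (-1.31 and -1.20) and Ints7 (-1.25 and -1.16) fell further than Ezh2 in both. Lyl1, a transcription factor of blood-forming cells, fell furthest (-3.05 in knockout, -2.55 in wild type). Others rose, such as the NF-kappaB subunit Rel (1.95 and 2.05) and the potassium channel gene Kcna3 (1.88 and 1.87). These genes were chosen after their values were seen.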
